A study of Mus musculus with 20 samples.

Results

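Genes of the farnesoid X receptor (FXR) axis and of bile acid uptake from the blood were followed in mouse liver: Nr1h4, Nr0b2, Klb, Slc10a1, Slco1a1, Slco1a4, Slco1b2, Slco2b1, Slc51a and Slc51b. They are 10 of the 18193 genes that the platform annotation names from probe sets assigned to 1 gene. All 10 were found by symbol, and each was represented by the probe set whose mean over the 20 arrays was highest. The mice were male C57BL/6J, an inbred laboratory strain, with an age of 8 weeks in the labels, and each gave 1 liver array. The MSXH group (10 mice) ate a diet with 45 kcal% fat plus 0.05% of a maple syrup extract abbreviated MSXH, and the HFD group (10 mice) ate the 45 kcal% fat diet without it. Both groups had first been acclimated on a low-fat diet with 10 kcal% fat, were fed for 4 weeks, and had livers taken on day 30 after a 16 h fast. Because every mouse had fasted, the values describe fasted liver. The low-fat group and the group given 0.02% extract were not analysed here.

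FXR is a nuclear receptor that bile acids activate. In hepatocytes it raises SHP, a repressor of bile acid synthesis encoded by Nr0b2, and in the intestine it raises the hormone FGF15, which acts on the liver through FGFR4 and its co-receptor beta-Klotho, encoded by Klb. Hepatocytes take up conjugated bile acids through NTCP (Slc10a1) and, with broader substrates, through the organic anion transporting polypeptides (the Slco genes). The heteromeric exporter of Slc51a and Slc51b returns bile acids to the blood and is known as an FXR target.

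The deposited log2 values were strongly compressed between arrays. The median over genes tested of the SD between mice was 1.48e-05, and array medians lay between 6.5053 and 6.5055. For that reason no fold change is given. Levels of single mice are given in SD units around the mean of the 20 mice, and diet differences as Hedges' g, the MSXH mean minus the HFD mean divided by the pooled SD with a small-sample correction. Hepatocyte markers fitted the liver label, with means from 11.42 (Tat) to 14.74 (albumin, Alb). Of the named ones, 7 of 7 lay above the filter level of 6.505, the median of the probe sets, as did 11728 of all 18193 named genes. Of 6 named bile duct markers 3 lay above it (Epcam 6.72, Sox9 6.99 and Cldn4 6.59) and Krt19, Krt7 and Cftr below. Of 5 gut markers, Fabp2 (11.07) and Cdx2 (6.88) lay above it and Fabp6, Slc10a2 and Vil1 below. No pair of arrays held identical values. In whole liver, fewer cells of a type and less RNA per cell cannot be told apart.

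None of the genes differed between the diets past the threshold. Of the 10, 9 passed the filter on low values and were tested with all 11728 genes that passed. With limma and Benjamini-Hochberg adjustment, 0 of 9 had an adjusted p under 0.05, against 0.0% of all genes tested, and the adjusted p was 0.9998 for each of the 9. At an unadjusted p under 0.05 there was 1 of 9, which is Klb, against 3.62% of all genes tested (425 of 11728). The Wilcoxon rank-sum test called 0 genes and had 0 of the 9 at an unadjusted p under 0.05. The g was below 0 for 5 of 9, against 50.6% of all genes tested. The median absolute g was 0.247 over the 9 and 0.270 over all genes tested.

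**Figure D1:**
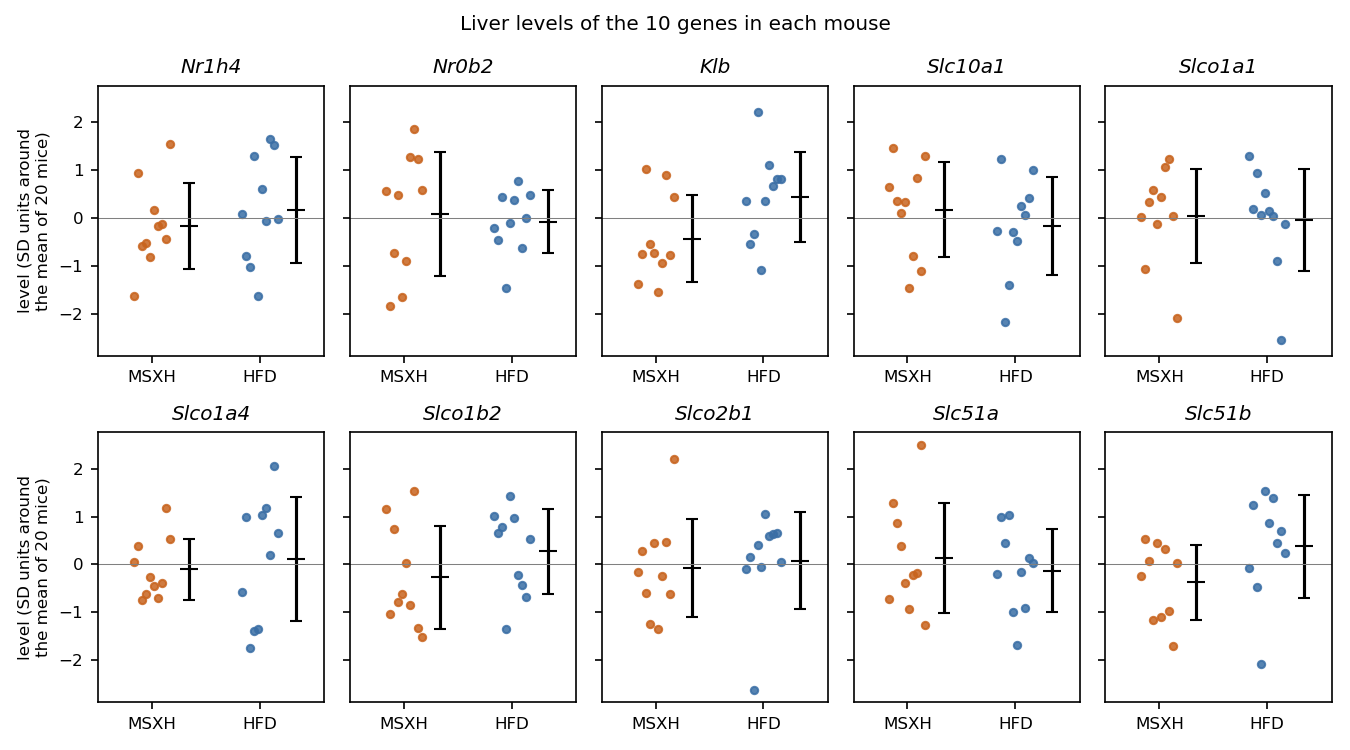
Level of each of the 10 genes in each mouse, in SD units around the mean of the 20 mice, for MSXH (left in each panel, 10 mice) and HFD (right, 10 mice). Points are mice and bars are the mean and SD. The diets overlap in every panel, and the lowest Slco1a1 values, -2.09 in an MSXH mouse and -2.55 in an HFD mouse, stand below the others.

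Klb had the g farthest from 0. Its levels ran from -1.55 through a median of -0.74 to 1.02 in MSXH mice, against -1.08 through 0.51 to 2.22 in HFD mice. The ranges overlapped, with 2 of 10 MSXH mice above the HFD median. Its g was -0.908 (95% interval -1.83 to 0.0123, limma unadjusted p = 0.0442, adjusted p = 0.9998, two-sided permutation p = 0.0489). Another Klb probe set, with a mean of 6.09 below the filter level, had a g of 0.367 and a rho of -0.49 with the chosen one over the 20 mice. Shifting the arrays to 1 median gave the chosen probe set a g of -0.182, and quantile normalization 0.219. The shift was a step larger than the spread of most genes, and quantile normalization left many ties. Values given under these settings, here and below, therefore do not tell whether a difference or a rho is stable.

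The receptor gene Nr1h4 ran from -1.64 through -0.30 to 1.54 in MSXH mice, against -1.64 through 0.03 to 1.65 in HFD mice, so the ranges were nearly the same. Its g was -0.316 (95% interval -1.20 to 0.566, unadjusted p = 0.462). Nr0b2, which encodes SHP, ran from -1.85 through 0.52 to 1.86 in MSXH mice, against -1.46 through -0.06 to 0.77 in HFD mice. Its MSXH mice lay on both sides of the HFD range, and g was 0.155 (95% interval -0.723 to 1.03, unadjusted p = 0.717).

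Among the uptake carriers, Slco1b2, which encodes the main OATP of mouse hepatocytes, had the g farthest from 0. It ran from -1.52 through -0.71 to 1.54 in MSXH mice, against -1.35 through 0.59 to 1.43 in HFD mice. The groups overlapped over nearly their whole ranges, and g was -0.525 (95% interval -1.42 to 0.367, unadjusted p = 0.228). With arrays shifted to the same median its g was 0.0367. Slc10a1, the sodium-dependent carrier NTCP, ran from -1.46 through 0.34 to 1.45 in MSXH mice, against -2.17 through -0.12 to 1.24 in HFD mice, with g = 0.319 (95% interval -0.563 to 1.20, unadjusted p = 0.460). Both of its probe sets had a g above 0, and their levels correlated over the mice with a rho of 0.935.

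Slco1a1, which encodes Oatp1a1, a carrier higher in male than in female mouse liver, had a g of 0.0761 (95% interval -0.801 to 0.953). Slco1a4, which encodes Oatp1a4, had a g of -0.200 (95% interval -1.08 to 0.679). Slco2b1, a carrier with a broad tissue range, had a g of -0.148 (95% interval -1.03 to 0.730). All 3 intervals include 0, and the diets overlapped for each of these genes. The leave-one-out range of g was -0.225 to 0.336 for Slco1a1 and -0.425 to 0.00368 for Slco1a4, so both changed sign with single mice left out. For Slco2b1 it was -0.551 (without HFD replicate 3) to -0.0154 (without MSXH replicate 6), for Nr1h4 -0.547 to -0.166 and for Slc10a1 0.121 to 0.518.

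The exporter subunits lay near the filter level. Slc51a averaged 6.64 and Slc51b 6.504, just under 6.505, so Slc51b entered no count of genes tested. It was kept as a member in the correlations below. Slc51a had a g of 0.247 (95% interval -0.633 to 1.13, unadjusted p = 0.572). Slc51b ran from -1.70 through -0.12 to 0.54 in MSXH mice, against -2.08 through 0.57 to 1.54 in HFD mice. No MSXH mouse exceeded the HFD median, and g was -0.769 (95% interval -1.68 to 0.140, unadjusted p = 0.0850 in a limma fit with no filter). With arrays shifted to the same median its g was 0.175, and without HFD replicate 4 it was -1.33.

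**Figure D2:**
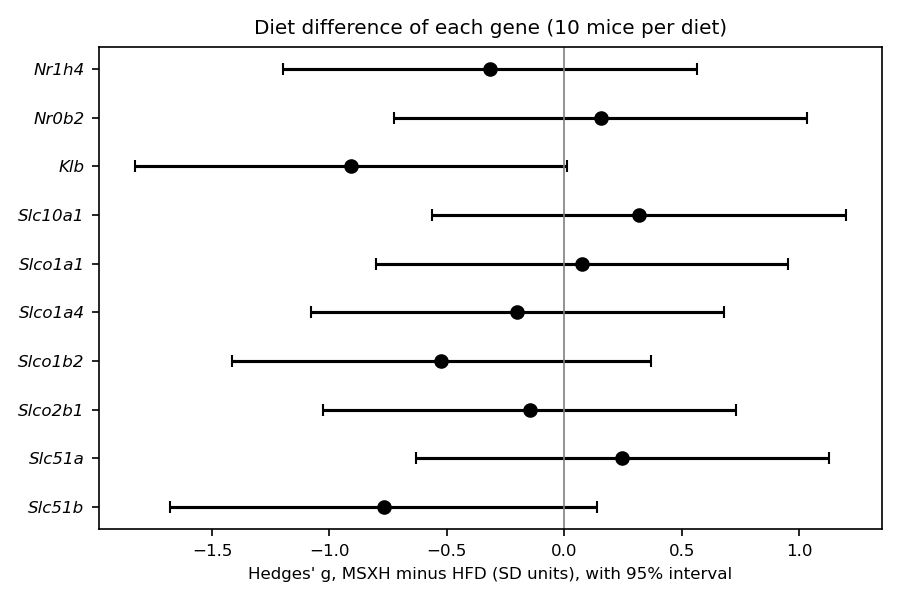
Hedges' g, MSXH minus HFD in SD units, for each gene with its 95% interval (10 mice per diet). All 10 intervals include 0, and Klb at -0.908 and Slc51b at -0.769 lie farthest from it.

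None of the other listed genes of the pathway passed either. Of 58 listed genes that were tested, 0 had an adjusted p under 0.05 and 0 an unadjusted p under 0.05. Among partners and targets of FXR, 6 of 15 were higher and 9 lower in MSXH (median g = -0.135), with Abcc2, a canalicular export pump, at 0.476 and Atp8b1, a phospholipid flippase, at -0.451. Among bile acid synthesis genes, 3 of 13 were higher and 10 lower (median g = -0.174). Hsd3b7, an early synthesis enzyme, had a g of -0.476, and Cyp8b1, the hydroxylase needed for cholic acid, 0.310. Other hepatic carriers had 7 of 12 higher (median g = 0.036), and genes of the xenobiotic receptors PXR and CAR 5 of 6 (median g = 0.379), with the drug-metabolizing Cyp3a11 at 0.602. Growth hormone and sex-biased genes had 4 of 12 higher (median g = -0.136), with Igf1, the growth factor that growth hormone induces, at -0.658. These medians stand beside -0.007 over all genes tested, and nothing follows about a list from them. Among cell markers, 8 of 8 of sinusoidal endothelial cells had a g above 0 (median g = 0.541, median level 0.36 in MSXH and -0.34 in HFD in SD units), and 0 passed. Fabp2, an intestinal fatty acid binding protein, had a g of -1.19 (unadjusted p = 0.0108), Rgs5 of stellate cells -1.03 (unadjusted p = 0.0238) and Bpgm of red blood cells 0.981 (unadjusted p = 0.0310). Each had a limma adjusted p of 0.9998. They were the only markers at an unadjusted p under 0.05, which 3.62% of all genes tested had. Of 7 stellate markers tested, 3 were higher and 4 lower (median g = -0.007). Of 3 red blood cell markers 2 were higher (median g = 0.166, with Alas2 at -0.145), and of 2 gut markers 0. The part of these cells in the values of the 10 genes was not tested.

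On the deposited scale the chosen probe sets differed in their SD between mice, but so did probe sets of 1 gene: 3.08e-05 and 0.000502 for Slco1b2, and 0.000294 and 0.00116 for Slco1a1. Percentiles of SD therefore describe probe sets and do not order the genes. The SD of Nr0b2 and that of Slco1a4 each lay at percentile 99.5 of the genes tested, Slco1a1 at 93.5 and Slco2b1 at 90.6. Slc10a1 lay at 50.0 and Slc51a at 23.5. In SD units of the 20 mice, the SD of Nr0b2 was 1.29 in MSXH and 0.658 in HFD, a ratio of 1.96. That of Slco1a4 was 0.630 in MSXH and 1.30 in HFD, a ratio of 0.485. Neither difference in spread passed over all genes tested (permutation test, unadjusted p = 0.0261 and adjusted p = 0.886 for Nr0b2, unadjusted p = 0.0146 and adjusted p = 0.849 for Slco1a4). This test was added after those SDs had been seen, and 3 genes (0.0256% of those tested) passed it, with 5.39% at an unadjusted p under 0.05.

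Slco1b2, Slco1a4 and Slco1a1 lie next to each other on chromosome 6 (GRCm38.p6, from 141629452 to 141686646, 141805438 to 141856284 and 141907281 to 141946962), and their promoters are shown because these neighbouring carriers include Slco1a1 and Slco1a4, the pair with the rho farthest from 0 over the mice on the deposited values. The stretches lie before the start used for each promoter, from RefSeq (GRCm38.p6), 5′ to 3′ on the gene's strand. They are at chr6:141629398-141629477 (plus strand) for Slco1b2, chr6:141946963-141947112 (minus strand) for Slco1a1 and chr6:141856221-141856370 (minus strand) for Slco1a4. For Slco1b2 and Slco1a4 that start lies inside the gene bounds above, so part of each stretch does too. Capitals mark the nuclear receptor half-site AGGTCA or its reverse complement TGACCT, and in Slco1b2 an inverted repeat with 1 mismatch.
Slco1b2: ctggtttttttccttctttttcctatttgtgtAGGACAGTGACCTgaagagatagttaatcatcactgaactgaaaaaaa
Slco1a1: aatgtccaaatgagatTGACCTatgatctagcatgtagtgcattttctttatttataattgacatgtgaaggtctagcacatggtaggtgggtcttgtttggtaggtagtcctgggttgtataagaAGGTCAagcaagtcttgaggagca
Slco1a4: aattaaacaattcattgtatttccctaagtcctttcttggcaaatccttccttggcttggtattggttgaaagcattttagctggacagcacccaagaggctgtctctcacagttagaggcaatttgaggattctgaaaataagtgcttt

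All 10 genes matched the promoter table, with 13 promoters of 300 bases (250 before to 50 after the start used for each, from which positions are counted). FXR binds inverted repeats of the half-site spaced by 1 base, AGGTCANTGACCT. Both strands were searched. The exact repeat was in 0 of the 13 promoters and in 3 of all 32851. With up to 1 mismatch it was in 1 of 13, that of Slco1b2 at -88 to -76 with T4A counted from the 5′ end of the repeat, against 0.0822% of all promoters. That search was added after the exact repeat had not been found. The half-site, which the repeat contains, was in 6 of 13 promoters (46.2%), those of Nr1h4, Slc10a1, Slco1a1, Slco1b2, Slc51a and Slc51b, against 16.3% of all. These are matches of letters and were not tested for binding.

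Co-variation of the 10 genes was tested over all 45 pairs. With Spearman rho and permutation p-values adjusted over the pairs, 0 of 45 passed (smallest adjusted p = 0.128), and with Pearson r also 0 (smallest adjusted p = 0.0605). At an unadjusted p under 0.05 there were 12 pairs (26.7%), 7 positive and 5 negative, against 12.5% of all pairs of genes tested. The median absolute rho was 0.213 over the 45 pairs and 0.203 over all pairs of genes tested. When the 2 mice with the most extreme levels of the first gene were left out, r of these 12 lay between 0.298 and 0.506 in absolute value.

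On the deposited values, the pair with the highest absolute rho was Slco1a1 and Slco1a4. Slco1a1 ran from -2.09 through 0.18 to 1.22 in MSXH mice, against -2.55 through 0.11 to 1.29 in HFD mice. Slco1a4 ran from -0.75 through -0.33 to 1.17 in MSXH mice, against -1.74 through 0.43 to 2.06 in HFD mice. Their rho was negative and did not pass (rho = -0.627, permutation p = 0.00364, r = -0.620, permutation p = 0.00285, adjusted p = 0.128 for rho). Without the 2 farthest mice r was -0.481, and rho was -0.673 in MSXH and -0.588 in HFD. It was -0.457 with the array median removed, where Slco1a4 and Slco2b1 had 0.665, and -0.448 with the probe set of largest SD, where Slco1a1 and Slco2b1 had -0.626. The HFD mouse of replicate 9 was lowest in Slco1a1 at -2.55 and highest in Slco1a4 at 2.06.

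Slco2b1 took part in 6 of the 12 pairs, which rest on its chosen probe set. Another probe set, with a mean of 8.66, had a rho of 0.725 with the chosen one. A further one, with a mean of 6.54 just above the filter level, had 0.072. With the chosen probe set, rho of Slco2b1 was 0.585 with Nr1h4 (permutation p = 0.00736, r = 0.549) and -0.576 with Slco1a1 (permutation p = 0.00851, r = -0.569), each with an adjusted p of 0.128. Its rho was 0.550 with Slco1a4, 0.508 with Klb, 0.499 with Slc51b and 0.456 with Slc10a1. With arrays shifted to the same median, rho was -0.150 with Slco1a1, 0.162 with Slco1a4 and 0.308 with Slc51b, and with quantile normalization it was 0.261 with Nr1h4, -0.326 with Klb and -0.223 with Slc51b. Slco2b1 had 1 mouse apart in each diet, 2.21 in MSXH replicate 10 and -2.63 in HFD replicate 3, and the r of Nr1h4 and Slco2b1 was 0.412 without the 2 farthest mice. Nr1h4 and its target Nr0b2 had a rho of -0.158 (permutation p = 0.503). The exporter subunits Slc51a and Slc51b, which lay near the filter level, had a rho of -0.275 (permutation p = 0.239). Neither pair passed.

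**Figure D3:**
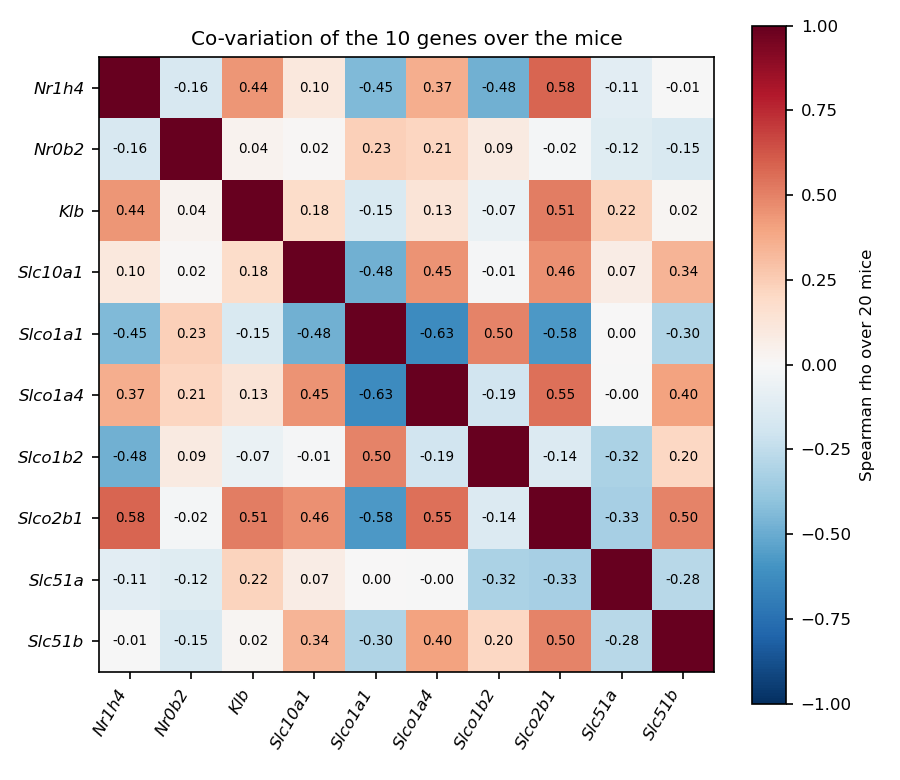
Spearman rho over the 20 mice for each pair of the 10 genes, with red for positive and blue for negative values. On these deposited values the largest absolute rho is -0.627 for Slco1a1 and Slco1a4, which is not so with the array median removed (-0.457), and 0 of 45 pairs pass after adjustment.

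Each of the 10 genes was then set against every gene tested, a screen added after the rho values with the listed genes had been looked at and when the 45 pairs seemed unlikely to pass. It covered 117271 pairs, of which 919 (0.784%) had an adjusted p under 0.05 over all of them. Nr1h4 had 255 partners (2.17% of genes tested), Slco1a1 228 (1.94%), Slco1a4 169 (1.44%), Slco2b1 120 (1.02%) and Slc10a1 68 (0.580%). Slco1b2 had 36 (0.307%) and Slc51b, which lay below the filter level, 29 (0.247%). Slc51a had 6 (0.0512%), Nr0b2 5 (0.0426%) and Klb 3 (0.0256%).

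These counts depended on single mice and on the array median. The 919 pairs became 88 without MSXH replicate 10, 308 without MSXH replicate 2, 96 without HFD replicate 9, 149 without HFD replicate 3, 262 without HFD replicate 8 and 379 without HFD replicate 5. With the array median removed by regression there were 118. With the probe set of largest SD for each gene there were 841, and the 36 partners of Slco1b2 became 8. Within each diet alone, with 10 mice, there were 0. The smallest p that the permutations can give is 1e-05, and its adjusted value was 0.0149.

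The array median itself varied with 2 of the genes. Its rho was 0.765 with Slco1a4 (r = 0.728, permutation p = 0.0002, adjusted p = 0.006 over 30 relations with array measures) and -0.653 with Slco1a1 (r = -0.408, permutation p = 0.00219, adjusted p = 0.0329). Without the 2 farthest arrays r was 0.631 for Slco1a4 and -0.171 for Slco1a1. The r of Slco1a1 had not reached an unadjusted p of 0.05 on all arrays (permutation p = 0.0718), while its rho stayed between -0.712 and -0.595 with single arrays left out and was -0.503 in MSXH and -0.733 in HFD. The 3′ minus 5′ level of the actin control, which reflects how intact the RNA was, had a rho of 0.438 with Nr1h4 (r = 0.524, permutation p = 0.0163 for r) and 0.429 with Slc10a1 (r = 0.512, permutation p = 0.0202 for r), and neither rho passed (adjusted p = 0.387 each). Its r was -0.502 with Slco1a1 (permutation p = 0.0242) and 0.491 with Slco2b1 (permutation p = 0.0277), with a rho of -0.137 and 0.259. Without the 2 farthest arrays r was 0.269 for Nr1h4, 0.455 for Slc10a1, 0.082 for Slco1a1 and 0.268 for Slco2b1. The 3′ minus 5′ level of the Gapdh control went otherwise, and none of its relations passed. Its rho was 0.371 with Nr1h4, -0.033 with Slc10a1, 0.397 with Slco1a1 and 0.095 with Slco2b1. What part these measures have in the relations was not tested beyond the removal of the array median.

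Among the 58 listed genes, 14 of 580 pairs (2.41%) passed in the screen, against 0.784% of all member and gene pairs. Their absolute r was between 0.549 and 0.790 without the 2 farthest mice, and their absolute rho between 0.538 and 0.796 with the array median removed. All 14 kept their sign in these settings and within each diet, which says little, since they were picked for a high absolute rho over the same mice. The number past the threshold was 0 with the array median removed and 0 without MSXH replicate 10. It was 2 without HFD replicate 9, 2 without HFD replicate 3, 3 without HFD replicate 8, 4 without HFD replicate 5 and 4 without MSXH replicate 2.

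Nr1h4 varied with 4 listed genes (6.90% of its 58, against 2.17% of all genes tested). Mice high in Nr1h4 were high in Sdc1, which encodes the cell surface proteoglycan syndecan-1 (rho = 0.820, r = 0.797, adjusted p = 0.0149). Sdc1 ran from -1.27 through -0.50 to 1.82 in MSXH mice, against -1.49 through 0.56 to 1.28 in HFD mice. They were also high in Cyp39a1, an oxysterol hydroxylase of bile acid synthesis (rho = 0.805, r = 0.820, adjusted p = 0.0244). Hsd3b5, a male-biased steroid dehydrogenase, was low in these mice (rho = -0.803, r = -0.793, adjusted p = 0.0244), as was Akr1c6, a hydroxysteroid dehydrogenase (rho = -0.764, r = -0.803, adjusted p = 0.0425). MSXH replicate 10 and HFD replicate 9, with Nr1h4 at 1.54 and 1.53, were the lowest of their diets in Hsd3b5 and Akr1c6.

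Slco1a1 varied with 5 listed genes (8.62% of its 58, against 1.94% of all genes tested, a count of 228 that fell as low as 10 with 1 mouse left out). It ran with Hsd3b5 (rho = 0.791, r = 0.840, adjusted p = 0.0401), Akr1c6 (rho = 0.771, r = 0.846, adjusted p = 0.0425) and Abcg2, an efflux pump (rho = 0.759, r = 0.841, adjusted p = 0.0425). It ran against Acox2, the peroxisomal oxidase that shortens the bile acid side chain (rho = -0.770, r = -0.766, adjusted p = 0.0425), and Cyp8b1 (rho = -0.762, r = -0.700, adjusted p = 0.0425). MSXH replicate 10 and HFD replicate 9 were lowest of their diets in Slco1a1, Hsd3b5, Akr1c6 and Abcg2. With the array median removed, rho was 0.612 for Hsd3b5, 0.623 for Akr1c6, 0.683 for Abcg2, -0.538 for Acox2 and -0.710 for Cyp8b1.

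The other carriers had fewer listed partners. Slco1a4 ran with Acox2 (rho = 0.771, r = 0.815, adjusted p = 0.0425) and with Baat, which conjugates bile acids to amino acids (rho = 0.741, r = 0.684, adjusted p = 0.0425). Slco2b1 ran with Acox2 (rho = 0.785, r = 0.795, adjusted p = 0.0425). Slco1b2 ran against Cyp2b10, a cytochrome P450 known as a CAR target (rho = -0.827, r = -0.737, adjusted p = 0.0149), and with Abcg2 (rho = 0.749, r = 0.729, adjusted p = 0.0425). Both relations rest on the chosen one of its 5 probe sets. The others above the filter level had a rho of 0.773 and 0.835 with it, and those below 0.155 and -0.275. Cyp2b10 ran from -1.39 through -0.15 to 2.00 in MSXH mice, against -1.35 through -0.31 to 2.13 in HFD mice, and the MSXH mouse lowest in it, replicate 8, was the highest MSXH mouse in Slco1b2.

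**Figure D4:**
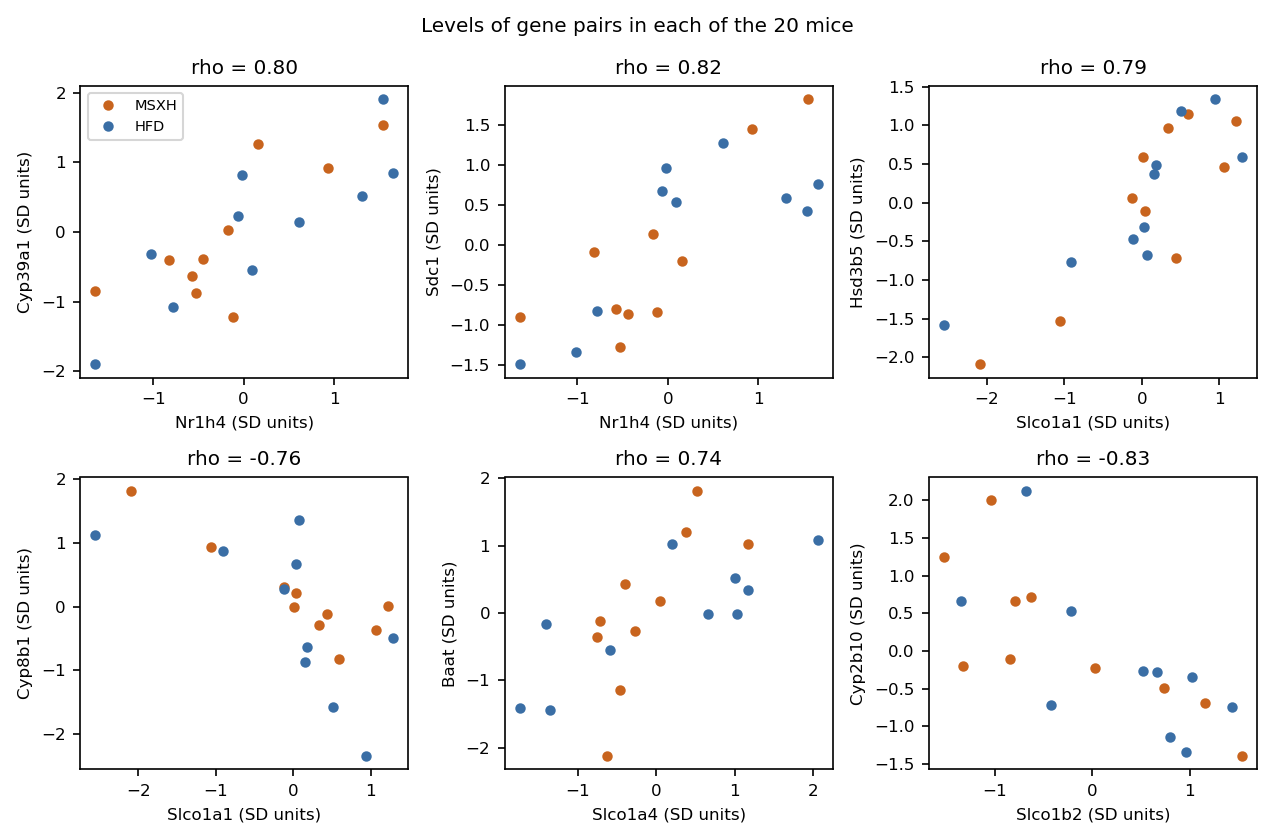
Levels in SD units of 6 gene pairs in each mouse, MSXH in orange and HFD in blue. Each panel gives rho over the 20 mice, from -0.83 for Slco1b2 and Cyp2b10 to 0.82 for Nr1h4 and Sdc1, and the diets are mixed along each trend.

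Nr0b2, Klb, Slc10a1, Slc51a and Slc51b had 0 listed partners past the threshold. Below it, Nr0b2 had a rho of -0.519 with Cyp7a1, the first enzyme of the classic bile acid pathway, which SHP is known to repress (adjusted p = 0.252). Cyp7a1 had a positive rho with Nr1h4 (0.677, adjusted p = 0.0827), Slco2b1 (0.621, adjusted p = 0.126) and Klb (0.459, adjusted p = 0.339), and a negative one with Slco1a1 (-0.624, adjusted p = 0.123). The rho of Nr0b2 was 0.565 with Nr5a2, the LRH-1 receptor that SHP binds (adjusted p = 0.184), and 0.674 with Abcg8, a sterol export half-transporter (adjusted p = 0.0848). With Abcg8 it was 0.867 in MSXH alone but 0.0788 in HFD alone. In the same order it was 0.782 and 0.709 with Nr5a2, and -0.552 and -0.358 with Cyp7a1. Slc10a1 had a rho of -0.648 with Atp8b1 (adjusted p = 0.105), and Klb 0.641 with Apoc2, an apolipoprotein gene that FXR raises (adjusted p = 0.108).

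**Figure D5:**
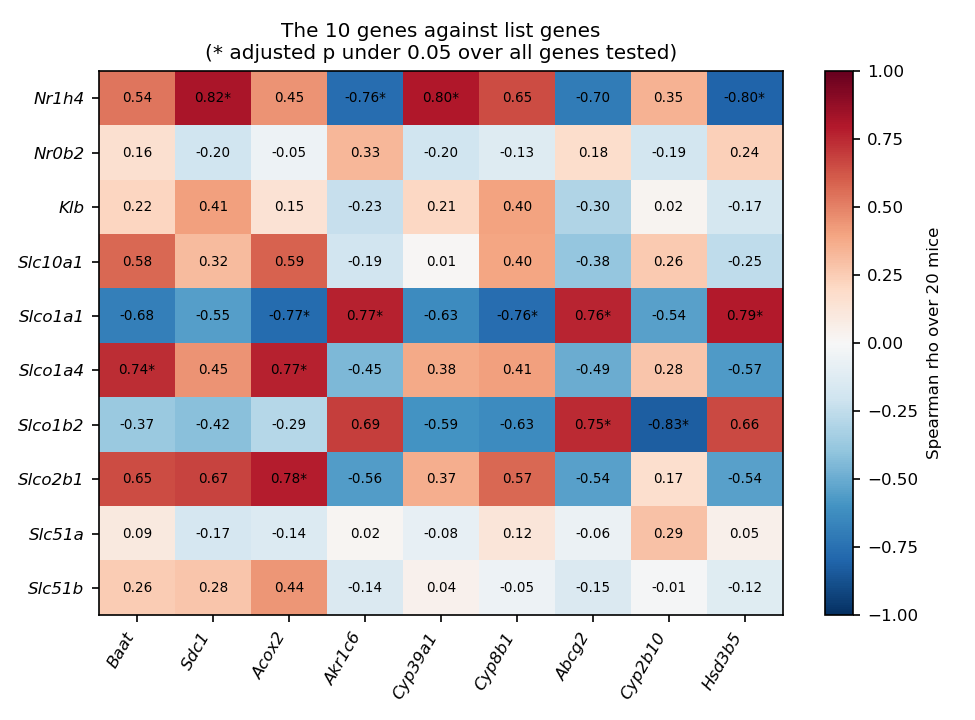
Spearman rho over the 20 mice of the 10 genes (rows) with the 9 listed genes that had a partner past the threshold (columns). Stars mark the 14 pairs with an adjusted p under 0.05, and the rows of Nr1h4 and Slco1a1 hold 9 of them with opposite signs for Hsd3b5 and Akr1c6.

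Markers of other liver cells were set beside the same genes. All 8 Kupffer cell and macrophage markers, which lay above the filter level, had a positive rho with Slco1a1 (0.459 to 0.669). All 8 had a negative rho with Nr1h4 (-0.632 to -0.268), Slc10a1 (-0.605 to -0.350), Slco1a4 (-0.439 to -0.281), Slco2b1 (-0.651 to -0.361) and Slc51b (-0.574 to -0.212). All 8 were also positive with Nr0b2 (0.189 to 0.520), Slco1b2 (0.156 to 0.409) and Slc51a (0.144 to 0.403), while Klb had 2 of 8 positive. None of these relations passed. The mean level of these markers in SD units ran from -1.96 through 0.33 to 1.71 in MSXH mice, against -0.81 through 0.00 to 1.62 in HFD mice. By g, 2 of the 8 were higher and 6 lower in MSXH (median g = -0.121). Of 7 stellate cell markers tested, 7 had a positive rho with Slco1a1 (0.036 to 0.666), as with Slco1b2 (0.143 to 0.514) and Slc51a (0.047 to 0.504), and 1 with Nr1h4. Among them Col3a1, a fibrillar collagen, passed with Nr1h4 (rho = -0.755, adjusted p = 0.0425). Of 8 sinusoidal endothelial markers, 0 had a positive rho with Slc51b (-0.567 to -0.153). The share of all genes with a positive rho is not given here. Alas2, a gene of red blood cell precursors, passed with Slco1a1 (rho = 0.802, adjusted p = 0.0292). The hepatocyte genes Cps1, of the urea cycle, and Apoa1, an apolipoprotein, passed with Slco1a1 (rho = -0.820, adjusted p = 0.0149) and Slco1a4 (rho = 0.740, adjusted p = 0.0425). The 7 hepatocyte markers tested went both ways, with 3 of 7 positive for Slco1a1 (median rho = -0.149, range -0.820 to 0.310) and 5 of 7 positive for Slco1a4 (median rho = 0.050, range -0.165 to 0.740). The part of these cells in the relations was not tested.

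The genes most alike to each of the 10, by rho after removal of the diet means, came from many processes. For Nr1h4 they were Dtwd1 (0.914), Mrpl4, a mitochondrial ribosomal protein (0.911), and Egln1, an oxygen-sensing prolyl hydroxylase (0.905). For Slco1a1 they were Mbtps1, the site-1 protease of SREBP processing (0.895), Txn1, thioredoxin (0.886), and Bst2, tetherin (0.865). Slco1a4 was most alike to Dhtkd1 (0.890), Mpzl2 (0.878) and the sulfotransferase Sult1a1 (0.877). Slco2b1 was most alike to Gorasp1 (0.892), Aldh16a1 (0.869) and the kinase Map2k3 (0.848), and Slco1b2 to Nlrp6 (0.856), Mtpn (0.848) and the ribonuclease Rnase4 (0.838).

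Slc10a1 was most alike to Snrnp200, a spliceosome helicase (0.871), Slc25a11, a mitochondrial carrier (0.848), and Prox1os (0.838). Nr0b2 was most alike to the orphan receptor Nr2c1 (0.785), the transcription factor Maff (0.758) and Mia3 (0.756), and Klb to Ppfibp2 (0.803), Pef1 (0.791) and 1500015A07Rik (0.770). Slc51a was most alike to Prrt1 (0.797), Ap1m2 (0.787) and Gprc5a (0.782), and Slc51b to Dcst2 (0.799), Haghl (0.796) and Inhbb, an activin subunit (0.784). Over the 20 mice without that removal, rho of these 30 pairs lay between 0.568 and 0.905 and r between 0.541 and 0.874, or 0.403 to 0.832 without the 2 farthest mice. Of the 30, 24 passed in the screen. Since they were picked as the highest of all genes tested, their values are a description.

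Some listed genes stood among the 50 most alike. Nr5a2 ranked 10 for Nr0b2 (0.696), Abcg2 ranked 44 for Slco1a1 (0.793) and Baat ranked 49 for Slco1a4 (0.773). For Slco1b2 they were Akr1c6 at rank 27 (0.768), Abcg2 at rank 30 (0.765), the growth hormone receptor Ghr at rank 39 (0.756) and Abcc2 at rank 50 (0.746).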

How the data were processed

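Per the labels' protocols, the authors made biotin-labelled RNA copies from 200 ng of liver total RNA with a 3′ IVT kit. The deposited values were taken as log2 levels of 45101 probe sets. How the arrays were background-corrected, normalized and summarised is not stated in those sources, and signal over background is unknown, so the number of arrays limits the precision. After removal of 64 controls, the platform annotation names 1 gene for 34945 probe sets, several for 932. Genes with a mean below 6.505 were left out of tests. The labels call the arrays biological replicates.

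The diet test used lmFit and eBayes of limma 3.58.1 (R 4.3.3) with Benjamini-Hochberg adjustment. Correlations used 100000 permutations in Python 3.11.15 with scipy 1.17.1, in families of 45 pairs of members, 117271 member and gene pairs, and 30 relations with array measures. The members and lists were chosen with earlier results of these data known. The table of rho with all listed and marker genes was looked at first, and the screen, its alternatives, the test of spread, the array measures, the removal of the array median and the promoter search with a mismatch were all added after seeing the data. The test of spread was first adjusted over the 10 genes alone and did not pass there either, and it was then run over all genes. Named genes were the members, up to 4 genes per list, the 3 genes most alike to each member, listed genes among the 50 most alike, and listed or marker genes past the threshold in the screen. Those in the last part, and those given below it, were chosen after their values were seen. Procedures were tested on simulated data. Same-numbered mice are not paired in the labels, and no array batch is named there.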

Additional observations from a re-analysis of the deposited data

Results flagged for a closer look

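Of 20 sets of 10 mice (10 genes in each diet), 2 held a mouse far from the others by Dixon's gap, the distance to the nearest mouse divided by the range of the set. Chance gives about 1 in 20 sets. Both concern Slco2b1. The gap was 0.489 for MSXH replicate 10, which was highest at 2.21 SD units, and 0.686 for HFD replicate 3, which was lowest at -2.63 SD units.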

How the results depend on the processing

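The number of genes that differed between the diets stayed at 0, both of the members and of the listed genes, under every alternative run: scaling, filter, probe set, variance model, array weights, replicate block, Wilcoxon test and leaving out each array. Quantile normalization left 6 of the 9 members and the filter at the 75th percentile 8. The count at an unadjusted p under 0.05, 1 (Klb), became 0 with arrays shifted to the same median, quantile normalization, the replicate block and the Wilcoxon test, and was 0 to 1 with single mice left out. Of 85 other values of g, 5 changed sign, but many of the 85 could not change. The filter, variance model, array weights, replicate block and Wilcoxon test leave g as it was, since it is computed from the values alone. Only the scaling and the choice of probe set could change it. With arrays shifted, g was 0.0367 for Slco1b2 and 0.175 for Slc51b. With quantile normalization it was 0.0853 for Slco2b1, -0.0356 for Slc51a and 0.219 for Klb. Leaving out single mice changed the sign in 7 of 200 values, with ranges of -0.225 to 0.336 (Slco1a1), -0.0322 to 0.391 (Nr0b2), -7.44e-06 to 0.405 (Slc51a) and -0.425 to 0.00368 (Slco1a4). The cause was not tested.

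The count of member pairs that passed, 0, became 25 with arrays shifted to the same median, and was 0 to 1 with single mice left out (Slco1a1 and Slco2b1 without MSXH replicate 8, rho = -0.697, adjusted p = 0.0468). With quantile normalization, which left 7 of the 10 genes with any variation and many ties, rho was -0.326 for Slco2b1 and Klb and -0.223 for Slco2b1 and Slc51b. The screen was not run under it. The 919 screen pairs and 14 listed pairs became 81298 and 283 with arrays shifted, a step larger than the spread of most genes. They became 118 and 0 with the array median removed, and 841 and 11 with the probe set of largest SD. In MSXH alone and in HFD alone they were 0 and 0. With diet means removed the listed pairs were 24. With single mice left out they ranged from 88 to 1150 and from 0 to 21.

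The labels do not say whether the same replicate numbers in both diets pair the mice. Same-numbered mice correlated between -0.133 and 0.369 (mean 0.053, against -0.006 for other numbers). For 2 of 20 arrays the closest array of the other diet bore the same number. These values cannot exclude a pairing. Under the replicate block 0 genes were called and 501 had an unadjusted p under 0.05, against 425 without it.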
